A study of Mus musculus with 6 samples.

Results

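The genes described here carry the symbols of protein subunits of the cytosolic ribosome or of variants of them. They were found by symbol in a deposited count table of mouse cells: symbols that start with Rpl or Rps and a digit, with Rplp0, Rplp1, Rplp2 and Rpsa, and without the Rps6k kinases, the binding protein Rps19bp1 and pseudogene symbols. This gave 88 of the 15528 listed symbols, 54 of the large and 34 of the small subunit. Among them 77 are the standard genes and 11 are variants or copies of another member (Rpl3l, Rpl6l, Rpl7l1, Rpl22l1, Rpl32l, Rpl36al, Rpl37rt, Rpl39l, Rps23rg1, Rps27l and Rps27rt). The rule left out 8 listed pseudogene symbols and 10 symbols of kinases or binding proteins. Enough counts for a test were present for 85 members; Rpl39l, Rpl3l and Rps23rg1 had at most 4 counts in any library and were not tested.

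The cells are labelled as lymphatic endothelial cells, which line lymph vessels. Of the libraries, 3 are labelled as controls and 3 come from cells treated with red blood cells, all at 24 h. The labels give no genotype, strain, age, dose of red blood cells or source of the cells, and they do not say that replicates came from separate cultures, so a p-value here reflects library-to-library spread that could be technical. The series title concerns exchange between the brain and the cervical lymph nodes after subarachnoid hemorrhage. Total counts ranged from 17263359 to 18381419 per library. Of 12 lymphatic endothelial markers 8 are listed and 4 had enough counts for a test (Nrp2, Nr2f2, Stab1 and Flt4). The defining markers were absent or nearly so: neither Prox1 nor Lyve1 is listed, and Pdpn had 6 counts over the 3 controls. Of 9 pan-endothelial markers 6 are listed, and only 2, Pecam1 and Eng, were tested, neither of them called. Cdh5, Kdr, Tek and Vwf had 7, 0, 3 and 8 counts over the 3 controls. With 6 libraries Stab1 was called higher (log2 fold change 1.04, edgeR adjusted p = 0.0029), and without control replicate 2 Nrp2 also was (0.26, 3.8e-08) and Nr2f2 was called lower (-0.15, 0.0041). The cell type is therefore that of the label only. Transcripts of the adult globins and Alas2 held 0.000283% to 0.000364% of the counts in the controls and 0.0537% to 0.0623% after treatment, and all 5 tested erythroid markers were called higher. Of 10 leukocyte markers 8 are listed and 5 were tested. Cd74, Ptprc and Lyz2 were called higher with 67, 36 and 83 counts over the 3 treated libraries against 0, 0 and 14 in the controls. Cd68 and Csf1r were tested and not called, with 1152 and 1340 counts over the treated libraries against 1098 and 1334 in the controls. What RNA of the added cells gave to ribosomal protein counts was not tested. In bulk RNA, fewer cells of a type and less RNA per cell cannot be told apart.

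A ribosome joins a small subunit, which reads the mRNA, to a large subunit, which forms the peptide bonds, and each carries a fixed set of proteins on a core of ribosomal RNA. The genes of these proteins are expressed together at high levels in nearly all cells, and their mRNAs are short. Most begin with a terminal oligopyrimidine (TOP) tract, a C followed by further C and T letters, through which the kinase mTORC1 and the RNA-binding protein Larp1 control how strongly these mRNAs are translated, so that protein output can change while the mRNA level stays the same.

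The stretch around the annotated transcription start is shown for 6 members, because it carries the pyrimidine letters shared by the family and shows how closely a copy can resemble its parent gene. Each sequence runs from 25 bases before to 25 bases after the start, 5′ to 3′ on the gene's strand, and is RefSeq sequence of build GRCm38.p6 (the authors' counts were made on GRCm39). Capitals mark every CTTTC or CTTCC.
Rpl35: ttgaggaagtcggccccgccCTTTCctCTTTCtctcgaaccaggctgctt
Rps26: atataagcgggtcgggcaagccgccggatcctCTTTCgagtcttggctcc
Rps9: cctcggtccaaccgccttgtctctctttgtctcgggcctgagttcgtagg
Rps6: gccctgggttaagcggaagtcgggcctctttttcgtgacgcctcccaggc
Rps27: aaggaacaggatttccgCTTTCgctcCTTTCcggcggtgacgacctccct
Rps27rt: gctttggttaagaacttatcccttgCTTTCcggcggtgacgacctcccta

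These windows lie at chr2:39005107-39005156 (Rpl35, minus strand), chr10:128626482-128626531 (Rps26, minus), chr7:3704016-3704065 (Rps9, plus), chr4:86857343-86857392 (Rps6, minus), chr3:90213624-90213673 (Rps27, minus) and chr9:114982715-114982764 (Rps27rt, minus). The Rpl35 window holds the marked letters in 2 places on either side of the annotated start, and Rps26 holds them once. The windows of Rps9 and Rps6 hold neither word, although both have a run of C and T letters near the start. Rps27 and Rps27rt share a run of 24 bases in these windows, and of 38 bases in the whole 300-base windows of the table, which begins at the second transcribed base of Rps27 and at the first of Rps27rt, while the letters before it differ. Reads that lie wholly within such a run could be assigned to either gene. Whether this affected the split between their counts was not tested.

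A start window was found by symbol for 67 of the 88 members. CTTTC or CTTCC occurred on the sense strand within these 50 bases in 35 of the 67 (52.2%), against 21.4% of 8960 other tested genes and 18.9% of all 27025 genes of the table. On the antisense strand the same words occurred in 29.9% of the members and 22.4% of the other tested genes. Over the whole 300 bases, CGGAAG on either strand, whose reverse complement contains CTTCC, occurred in 64.2% of the members, 37% of the other tested genes and 18.8% of all genes of the table. TATAA on the sense strand occurred in 25.4%, 10.5% and 20% respectively. Several annotated starts may differ from the start used in these cells, and a match of letters is a description only.

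Ribosomal protein mRNAs were among the abundant transcripts of these cells. Levels between genes are compared here in FPKM, counts scaled to library size and gene model length, which the authors deposited. Over the 5 libraries other than control replicate 2, the median member had 605 FPKM; 12 tested members had at least 1000 FPKM, 67 had between 100 and 1000, and 6 had less. In the large subunit Rpl8 had the highest level, with 1811 and 1982 FPKM in control replicates 1 and 3, 2388 in control replicate 2, and 2058, 1894 and 1999 in the treated libraries. Rpl41, the smallest protein of the ribosome, followed with 1815, 2408 and 1926 FPKM in controls 1 to 3 and 1898, 1756 and 1840 in treated replicates 1 to 3. The ranges of these genes overlapped, so their order is not fixed. Rplp1, an acidic protein of the stalk that recruits translation factors, had a mean of 1416 FPKM over the 5 libraries, Rpl32 1379 and Rpl28 1326.

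In the small subunit Rps3a1 was among the genes of highest level, with 1041, 1329 and 1060 FPKM in controls 1 to 3 and 1088, 1101 and 1084 in the treated libraries. Rps4x, the X-linked gene of its protein, had a mean of 965 FPKM over the 5 libraries. At the low end stood Rpl32l with 4.18 FPKM, Rpl34 with 25.5 FPKM and Rps27rt with 45.0 FPKM. A long gene model lowers FPKM by construction: Rps15a had 116 FPKM over a model of 5136 bases and Rps20 135 FPKM over 3446 bases, against a median model of 789 bases over the members. For Rpl34, the listed pseudogene symbol Rpl34-ps1 held 77.8% to 83.4% of the counts of the pair in every library.

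**Figure D1:**
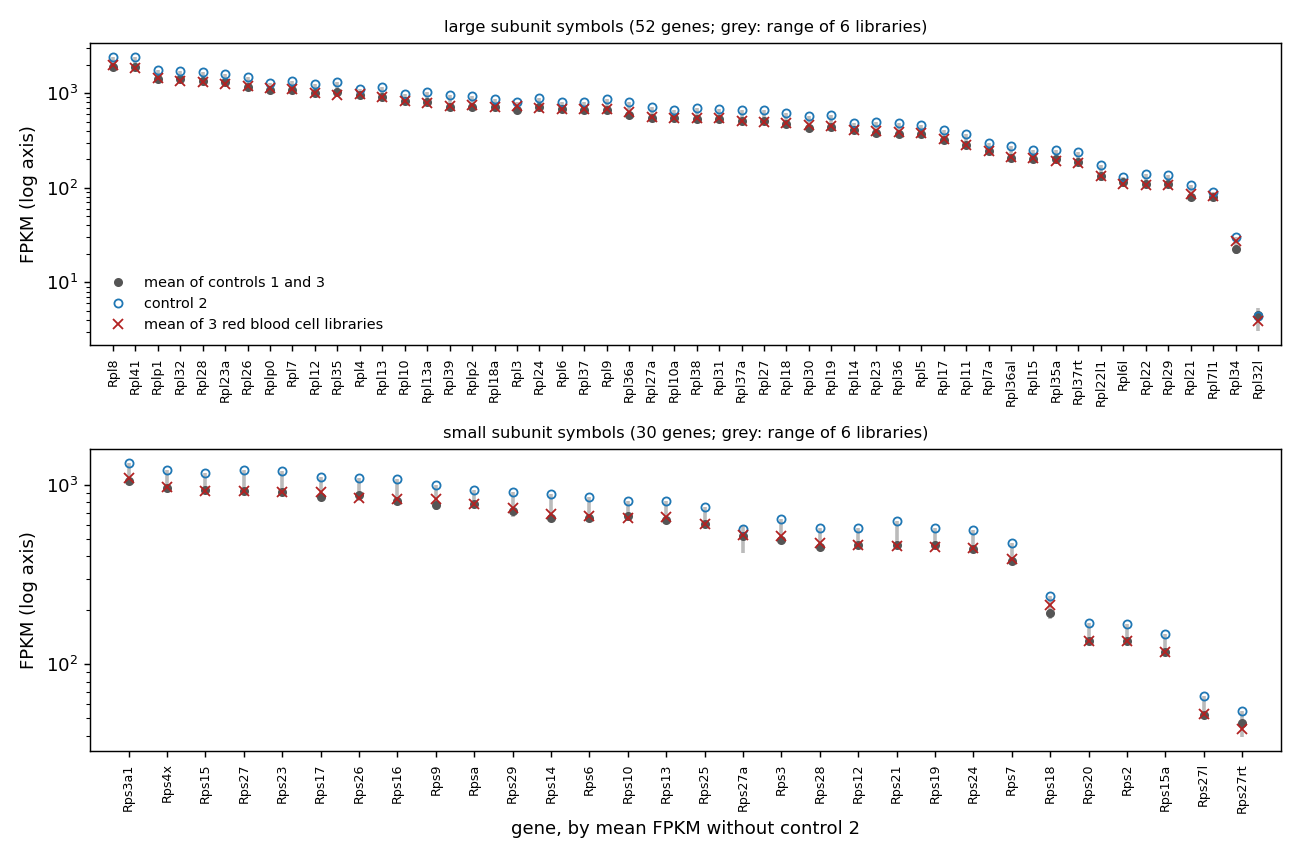
FPKM (log axis) of 82 of the 85 tested ribosomal protein genes, by subunit and ordered by their mean without control replicate 2; grey lines span the 6 libraries, filled circles are the mean of controls 1 and 3, open circles control 2 and crosses the mean of the 3 treated libraries. Levels run from Rpl8 and Rpl41 down to Rpl34 and Rpl32l, crosses and filled circles nearly coincide, and control 2 lies above both for most genes.

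The family as a whole held an almost constant part of each library except control replicate 2. Members took 4.44% of the counts in control replicate 1, 5.65% in control replicate 2 and 4.56% in control replicate 3, and 4.6%, 4.56% and 4.56% in treated replicates 1 to 3. The mean was 4.88% ± 0.665 (SD, n = 3) in the controls and 4.57% ± 0.0261 (SD, n = 3) after treatment. Without control replicate 2 the control mean was 4.5%, and the treated mean was 1.02 times that. Treated libraries and controls 1 and 3 thus lay together, with control 1 slightly below the others, and control 2 alone was high.

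The subunits kept their proportion. Counts of large subunit genes were 1.600, 1.602 and 1.615 times those of small subunit genes in controls 1 to 3 and 1.619, 1.598 and 1.631 times in treated replicates 1 to 3. The groups overlapped, and control replicate 2 did not stand apart in this ratio.

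Control replicate 2 had the highest CPM (the count scaled to the library total) of the 6 libraries in 82 of the 85 tested members, against 35.2% of all tested genes. Its CPM was a median 1.27 times the mean of controls 1 and 3, from 0.978 for Rpl32l to 1.37 for Rpl36a, and 83 members were at least 1.1 times that mean. Only Rpl32l and Rps27a, the gene of a ubiquitin fusion, were under 1.1. The same held for other short genes: over all tested genes the median was 1.29 times under 500 bases of gene model, 1.24 from 500 to 1000, 1.07 from 2000 to 3000 and 0.86 above 5000. Members of 1500 to 2000 bases had a median of 1.26, against 1.13 for all tested genes of that length, and the 2 members with models over 3000 bases, Rps15a and Rps20, both had 1.26. The length of a gene model need not be that of the transcript the cells made.

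**Figure D2:**
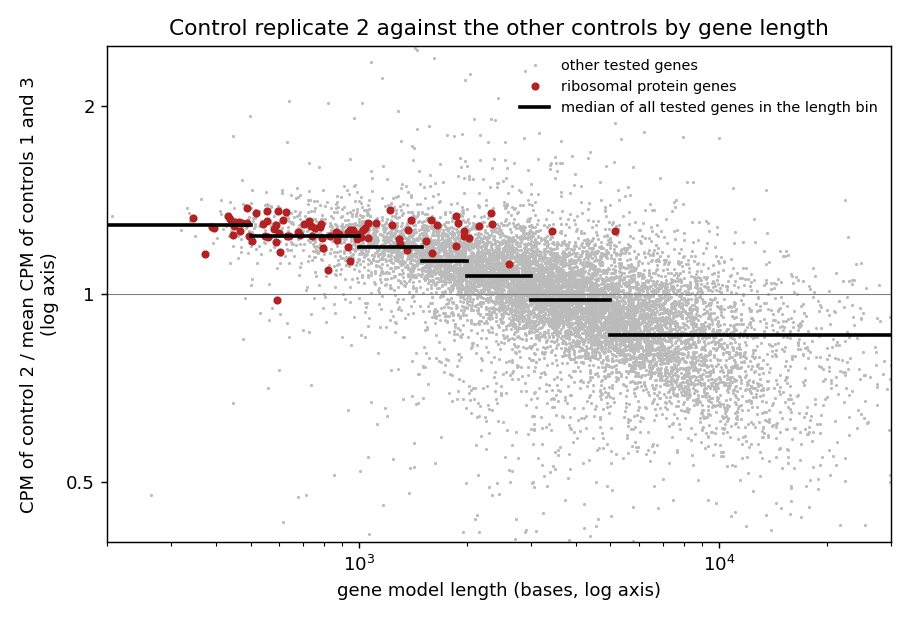
CPM of control 2 divided by the mean CPM of controls 1 and 3 (log axis) against gene model length in bases (log axis) for all tested genes (grey), ribosomal protein genes (red) and the median of each length bin (black lines). The bin medians fall from 1.29 under 500 bases to 0.86 above 5000, and nearly all members lie above 1; a few genes fall outside the axes.

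**Figure D3:**
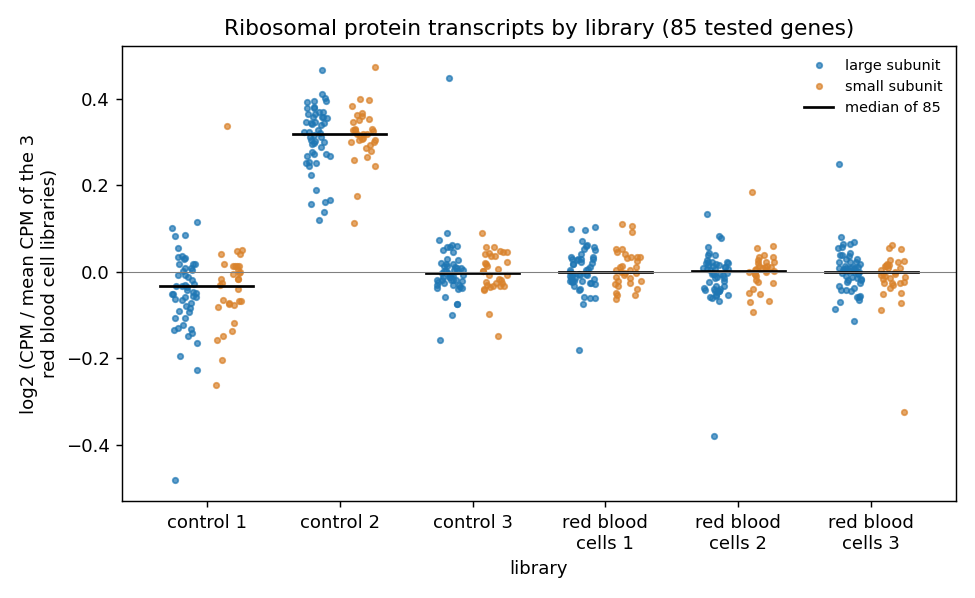
Each point is 1 of the 85 tested members, shown as log2 of its CPM over its mean CPM in the 3 treated libraries, for large (blue) and small (orange) subunit genes in each of the 6 libraries; black lines are medians. The median is 0.32 in control 2 and between -0.03 and 0.00 in the other 5 libraries; the low point in treated library 3 at -0.32 is Rps27a.

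With all 6 libraries, no ribosomal protein gene was called higher or lower after red blood cells. A gene was called at a Benjamini-Hochberg adjusted p under 0.05 in edgeR's quasi-likelihood test over all genes, which called 1.46% of 11208 genes (1.16% higher and 0.303% lower). No member had an unadjusted p under 0.05 either, against 9.99% of all tested genes; DESeq2 also called none (2.11% of all genes, 1.51% higher and 0.598% lower), as did limma voom. With library weights, voom called Rpl34 higher and no other member (5.81% of all genes, 3.23% higher and 2.58% lower). The fold changes leaned one way all the same: 82 of 85 were negative, with a median log2 fold change of -0.10 and a range from -0.22 (Rpl35) to 0.14 (Rpl34), while the median over all tested genes was 0.00 at 2 decimals. Treated and control libraries were fully separate for 5 members, all with lower CPM in the treated libraries (among them Rpl35, Rpl35a, Rpl32 and Rps10, chosen after their values were seen), against 19.6% of all tested genes. The median standard error of a member was 0.097, and the 95% interval lay within a 1.2-fold change either way for 9 members and within 1.5-fold for 84. For most members a difference of 1.2-fold in at least 1 direction was thus inside the interval with control 2 included.

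Without control replicate 2 the lean was gone in the same edgeR test. Standard errors were smaller with the control that stood apart left out, so the narrower intervals describe the remaining libraries only. The median log2 fold change of the 85 members was then 0.02, with 54 positive and 31 negative values, and 51 members changed sign. The median standard error fell to 0.032, and the 95% interval lay within 1.2-fold for 82 of 85; the exceptions were Rpl34, Rps27rt and Rpl32l. Mean CPM of the treated libraries was 1.24 times that of controls 1 and 3 for Rpl34, 0.924 times for Rps27rt and 0.877 times for Rpl32l, and between 0.943 and 1.1 times for all other tested members. In this comparison of 2 against 3 libraries, edgeR called 4 members higher and none lower (4.71%), against 7.96% of 11297 genes tested (4.19% higher and 3.77% lower). An unadjusted p under 0.05 was found for 16 members, against 19.4% of all genes. Treated libraries were fully separate from controls 1 and 3 for 16 members (11 higher and 5 lower), against 34.2% of all genes. The share of members called higher was thus near that of all genes, and the other shares were not above it.

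**Figure D4:**
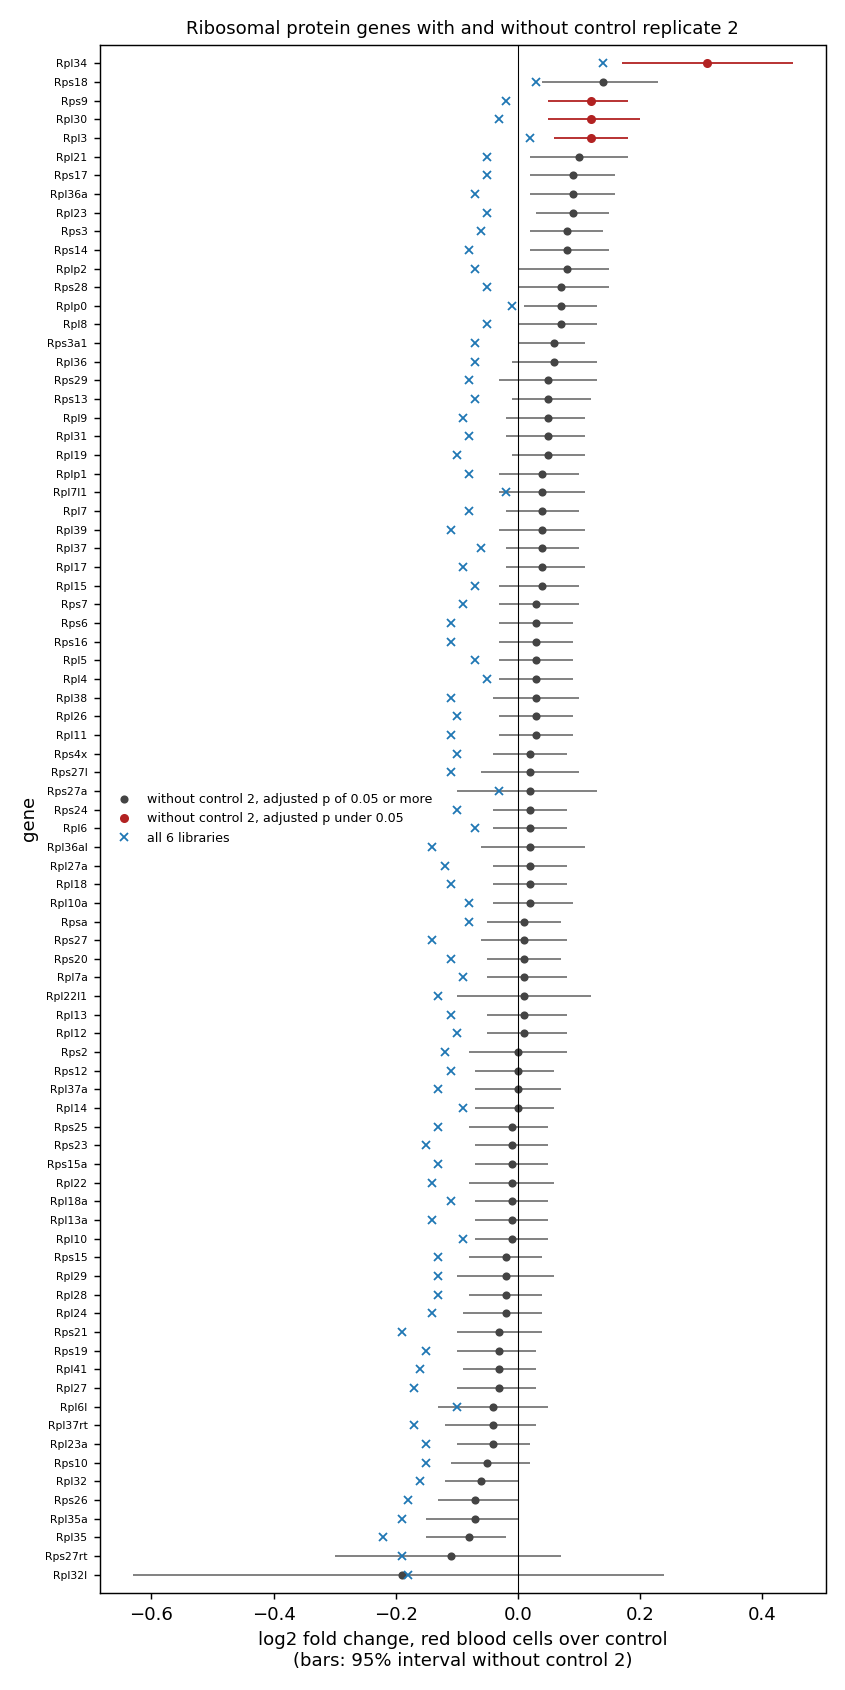
Log2 fold change of red blood cells over control for 82 of the 85 tested members, ordered by the value without control 2 (circles with 95% interval; red where the adjusted p is under 0.05), with the value from all 6 libraries (crosses). Rpl34, Rps9, Rpl30 and Rpl3 are called without control 2, and the crosses lie to the left of the circles for nearly all genes.

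Rpl34, a protein of the large subunit, had the largest log2 fold change of the members without control 2. Its CPM was 24.2, 37.2 and 30.3 in controls 1 to 3 and 33.7, 33.7 and 34.0 in treated replicates 1 to 3, so control 2 lay above and the other controls below every treated library. Without control 2 it rose by a log2 fold change of 0.31 ± 0.07 SE (edgeR adjusted p = 0.0012), higher in all 3 treated libraries than in both controls. The pseudogene symbol Rpl34-ps1, with 122 and 117 CPM in controls 1 and 3 and 123, 118 and 135 in the treated libraries, had 0.07 ± 0.04 (adjusted p = 0.38). Summed over both symbols the treated mean was 1.08 times that of controls 1 and 3, against 1.24 times for Rpl34 alone. Whether the counting divided reads between these symbols was not tested, so the change of Rpl34 itself is uncertain.

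Rpl3, which lies close to the site of peptide bond formation, had 996, 1251 and 1059 CPM in controls 1 to 3 and 1130, 1105 and 1112 CPM after treatment. Without control 2 its log2 fold change was 0.12 ± 0.03 SE (edgeR adjusted p = 0.0047), and both controls lay below all treated libraries. Rps9, a small subunit protein that binds ribosomal RNA early in assembly, had 511, 704 and 575 CPM in controls 1 to 3 and 593, 590 and 583 CPM after treatment. Its log2 fold change without control 2 was 0.12 ± 0.03 SE (edgeR adjusted p = 0.016), again with no overlap. Rpl30, a small protein of the large subunit, had 250, 363 and 286 CPM in controls 1 to 3 and 296, 297 and 284 CPM after treatment, a log2 fold change of 0.12 ± 0.04 SE (edgeR adjusted p = 0.022), although control 3 lay inside the treated range. In each of the 4 genes control 1 was the lowest library.

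The size of these 4 changes depended on which control was kept. With controls 1 and 2 both left out, none of the 85 members was called (5.28% of all genes tested were), and the log2 fold changes were 0.15 for Rpl34, 0.07 for Rpl3 and 0.03 for Rps9 and Rpl30, with adjusted p-values between 0.36 and 0.85. With controls 2 and 3 left out, 15 members were called higher and 1 lower (6.7% of all genes), and the same 4 genes had 0.49, 0.17, 0.21 and 0.23. In these fits the lone control is assumed to vary like the treated libraries, so a call lost or gained there does not show what it rested on. Leaving out control 2 and treated replicate 1, 2 or 3 gave 4, 3 and 7 members called higher. Of all genes 7.52%, 6.51% and 6.51% were called in either direction. With treated replicate 2 left out, Rps9 and Rpl30 were not called (edgeR adjusted p = 0.073 and 0.13). DESeq2 without control 2 called only Rpl3 and Rpl34 (adjusted p = 0.0069 and 0.042; Rps9 0.53 and Rpl30 0.64), beside 4.08% of all genes (2.35% higher and 1.73% lower). An offset for the dependence of every library on length and GC was also fitted. With it, 2 members were called higher without control 2 (Rpl34 and Rpl3, against 4.77% of all genes). Lower calls numbered 19 of the 85, against 5.68% of all genes, among them Rpl35, Rps26, Rpl32 and Rpl41. The median of the members was then -0.05. With the offset and all 6 libraries, 74 of the 85 were negative (87.1%, against 53.9% of all genes), with a median of -0.07.

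Rpl35, a large subunit protein near the exit of the peptide tunnel, had the lowest log2 fold change of the members with 6 libraries and was singled out after its values were seen. It had 469, 599 and 449 CPM in controls 1 to 3 and 427, 438 and 435 after treatment, with every treated library below every control. The log2 fold change was -0.22 ± 0.10 SE (edgeR adjusted p = 0.51) with 6 libraries and -0.08 ± 0.03 (0.09) without control 2. With the length and GC offset Rpl35 was called lower (adjusted p = 0.015 with 6 libraries and 3.9e-06 without control 2), and with 6 libraries Rpl41 too (0.03), where 3.34% of all genes were called (1.9% higher and 1.44% lower). When libraries were scaled to the summed counts of the family, so that each member is measured against the others, Rpl34 and Rpl3 were called higher (adjusted p = 0.0045 and 0.047) and Rpl35 lower (0.047) without control 2, while 7.45% of all genes were called. With this scaling and 6 libraries no member was called, and 0.589% of all genes were.

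**Figure D5:**
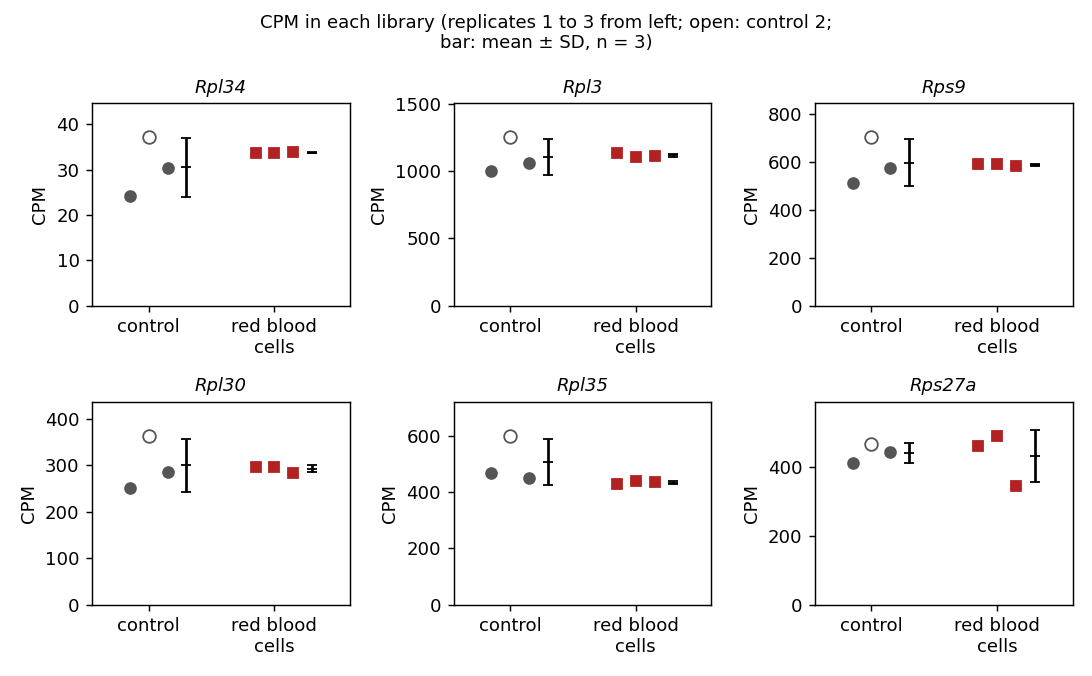
CPM in each library for the 4 genes called without control 2 (Rpl34, Rpl3, Rps9, Rpl30) and for Rpl35 and Rps27a; circles are controls, the open circle control 2, squares treated libraries, and bars the mean ± SD (n = 3). Control 2 is the highest library in 5 of the 6 genes; in Rps27a treated library 3 is the lowest at 344 CPM.

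Among members with special roles, the stalk protein Rplp0 had 1494, 1725 and 1440 CPM in controls 1 to 3 and 1587, 1499 and 1541 CPM after treatment, and its log2 fold change was -0.01 with 6 libraries and 0.07 (edgeR adjusted p = 0.13) without control 2. Rplp1 and Rplp2, its partners in the stalk, had 0.04 and 0.08 without control 2 (adjusted p = 0.66 and 0.22). Rpsa, the laminin receptor of older naming, had 1467, 1733 and 1439 CPM in controls 1 to 3 and 1489, 1454 and 1446 after treatment. Rps6, the target of the S6 kinases below mTORC1, had 883, 1198 and 936 CPM in controls 1 to 3 and 906, 946 and 942 after treatment, a log2 fold change of 0.03 without control 2 with a 95% interval from -0.03 to 0.09. Apart from control 2, the libraries of the groups overlapped for Rplp1, Rplp2, Rpsa and Rps6. For Rplp0 every treated library lay above controls 1 and 3.

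Rps27a, which makes ubiquitin joined to a small subunit protein, varied more between treated libraries than nearly all other members. It had 459, 489 and 344 CPM in treated replicates 1 to 3, a coefficient of variation of 17.8%, against a median of 2.65% over the tested members. The controls had 410, 466 and 442 CPM. A wider spread was found only for Rpl32l (21.2%), which had 1.80 to 2.78 CPM in those libraries.

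Variant genes differed in the share of counts they held beside their partners. Rpl22l1, the paralog of Rpl22, held 19.2% to 22% of the summed counts of the pair, and 53.2% to 57.5% when compared in FPKM, since its gene model is much shorter. Rpl36al held 25.1% to 27.7% of the counts it shared with Rpl36a, Rps27l, a known p53 target, 25.4% to 26.7% of those with Rps27, and Rpl7l1 15.6% to 17.8% of those with Rpl7. Compared in FPKM, Rpl36al held 24.1% to 26.6%, Rps27l 5.18% to 5.53% and Rpl7l1 6.21% to 7.22%. Rpl6l and Rpl37rt, whose symbols mark them as copies of Rpl6 and Rpl37, held 9.66% to 11.1% and 18.3% to 20.3% of the counts (12.8% to 14.7% and 20.5% to 22.7% in FPKM). Rps27rt, shown above beside Rps27, held 4.34% to 6.19% of the counts (4.03% to 5.75% in FPKM). The ranges of treated and control libraries overlapped in each of these pairs. Of the muscle paralog Rpl3l there were 2, 3 and 0 counts in the controls and 0 in each treated library, and of Rpl39l, the testis paralog of Rpl39, 1, 1 and 1 and 4, 0 and 2, too few for a fold. None of the 8 tested variants was called with or without control 2 in the edgeR test with no offset. With the length and GC offset and without control 2, Rpl37rt was called lower (log2 fold change -0.11, edgeR adjusted p = 0.035).

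The lists of related genes were chosen for their roles. Fau, which encodes a ribosomal protein fused to a ubiquitin-like protein, and Rack1, a scaffold on the small subunit, were not called. Without control 2 they had log2 fold changes of 0.01 and 0.05 (edgeR adjusted p = 0.91 and 0.35). Of 20 further TOP mRNAs, mostly of translation factors, 1 was called lower with 6 libraries. This was Vim, the intermediate filament vimentin and no translation factor, with 3808, 4304 and 3767 CPM in controls 1 to 3 and 3179, 3040 and 3048 after treatment (log2 fold change -0.36 ± 0.07 SE, adjusted p = 0.043). Without control 2, where 4.19% of all genes were called higher and 3.77% lower, Vim remained lower and 4 of the 20 were called higher, the nucleolar chaperone Npm1, the poly(A)-binding protein Pabpc1, the elongation factor subunit Eef1b2 and the splicing protein Hnrnpa1, each with 0.09 or 0.10 on the log2 scale (named after their values were seen). Pabpc1 had 2414 and 2369 CPM in controls 1 and 3 and 2535, 2521 and 2560 CPM after treatment. The elongation factor Eef2 had a log2 fold change of 0.12 with 6 libraries (adjusted p = 0.57) and 0.08 without control 2 (0.067). The median of the 20 was -0.05 with 6 libraries and 0.03 without control 2.

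None of the 17 genes of TOP control and mTORC1 signalling was called with or without control 2, where their median was 0.01; Larp1 had 0.02 there, the kinase Mtor 0.05, its inhibitor Tsc1 0.07 and the cap-binding protein Eif4e -0.05. With 6 libraries these values were 0.11, 0.17, 0.19 and -0.11 (adjusted p from 0.58 to 0.66). Of the 21 genes of RNA polymerase I and its factors, all tested, none was called with 6 libraries. The shared polymerase subunit Polr2l had -0.29 there (adjusted p = 0.38). Without control 2 only Myc, the transcription factor that drives ribosome production, was called, with 147, 165 and 151 CPM in controls 1 to 3 and 177, 166 and 174 after treatment (log2 fold change 0.21 ± 0.04 SE, adjusted p = 2.7e-05). Of 60 ribosome assembly genes none was called with 6 libraries and 3 (5%) were called higher without control 2, near the 4.19% of all genes. There 52 of the 60 had positive values, against 5631 of 11297 genes, and the median was 0.05. With 6 libraries 28 of the 60 were positive (median -0.01), and 35 (median 0.01) when the length and GC offset was added. The 3 called without control 2 were Eif6, which keeps the subunits apart, and the nucleolar assembly factors Rrp9 (0.20) and Rrs1 (0.15). Eif6 had 255, 317 and 262 CPM in controls 1 to 3 and 318, 308 and 292 after treatment (log2 fold change 0.24, edgeR adjusted p = 2.4e-07). Rrp9 and Rrs1 were named after their values were seen. Of 9 snoRNA host genes only Rack1 is listed.

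Other families of short genes shared the pattern. The mitochondrial ribosomal proteins (78 tested) had a median of 1.21 times in control 2 over controls 1 and 3. Genes with Nduf, Cox4 to Cox8, Uqcr or Atp5 symbols (respiratory chain and ATP synthase, 86 tested) had 1.26 times and the proteasome subunits (36 tested) 1.2 times. Their median log2 fold changes were -0.10, -0.12 and -0.10 with 6 libraries and 0.00, -0.01 and -0.01 without control 2, beside -0.10 and 0.02 for the cytosolic ribosomal proteins. Without control 2, 1 mitochondrial ribosomal protein gene was called higher, 1 respiratory chain or ATP synthase gene lower and 1 proteasome gene in each direction. With 6 libraries none was called in any of the 3 families. No test of the difference between these families was made.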

How the data were processed

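Total RNA was extracted with TRIzol and made into stranded mRNA libraries (TruSeq), per the labels' protocols. The submitters' processing notes name the build GRCm39; the sources used here do not give the aligner, counter, strand setting or annotation. The authors deposited raw counts per gene symbol and FPKM values of the same reads; the FPKM were scaled by each library's summed counts, and the gene model length was computed from both tables (largest relative departure 3.4e-08 over 10882 genes).

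Counts were tested with edgeR 4.0.16 (R 4.3.3): filterByExpr (minimum count 10, minimum total 15) kept 11208 genes (99.96% of the counts); scaling was TMM; the two-sided quasi-likelihood p-values (glmQLFit, glmQLFTest) were Benjamini-Hochberg adjusted over all tested genes. Intervals are 95% intervals from the same fit. The filter was rerun whenever a library was left out. CPM are relative to all listed counts. FPKM were used for levels only. The pipeline was tested on simulated counts. Alternatives were other scalings, DESeq2 1.42.0, limma 3.58.1 voom, other filters, an offset from each library's spline trend with gene length and GC content (GC from GENCODE transcripts, matched for 98.3% of tested genes), the replicate number as a block, and leaving out each library. Scaling to the ribosomal protein sum, and leaving out a further library besides control replicate 2, were added after seeing the data.

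The members, the lists and the comparison without control replicate 2 were chosen with earlier results of these data known. Some genes are not reported here by name or in the plots that label genes. Otherwise, named members were the 5 highest by FPKM in each subunit, members called without control replicate 2, variants with their partners, Rplp0, Rplp1, Rplp2, Rpsa, Rps6 and Rps27a, and up to 4 genes of each list by p with 6 libraries. Rpl35, Rpl34-ps1 and the others marked so were chosen after their values were seen. Erythroid, leukocyte and endothelial markers served as checks. The polymerase I subunits Polr1f, Polr1g and Polr1h were matched under the older symbols Twistnb, Cd3eap and Znrd1.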

Additional observations from a re-analysis of the deposited data

How the results depend on the processing

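The 164 genes called with 6 libraries became 651 in voom with library weights, 374 with the length and GC offset, 66 with scaling to the ribosomal protein sum, and 62 to 899 with a library left out. Ribosomal protein genes called higher, 0 with 6 libraries, were 1 with library weights (Rpl34) and 0 to 4 with a library left out, the 4 coming from leaving out control replicate 2; those called lower were 2 with the offset. Rpl30 and Rps9 turned from -0.03 and -0.02 to 0.12 each without control replicate 2 (ranges -0.15 to 0.12 and -0.12 to 0.12 with a library left out). A change of sign in a gene that was not called either way was not counted as a reversal. Of 702 gene values under alternatives (39 named genes), 695 kept their side of the threshold; the exceptions concern Rpl3, Rpl34, Rpl35, Rpl41, Rpl30 and Rps9. The labels do not say that the replicate numbers pair the libraries. Correlations of same-numbered deviations were -0.014, 0.045 and 0.063, but these deviations are from means that include control replicate 2 and cannot settle pairing. With the replicate block 126 genes and 0 members were called, and the median of the members was -0.09.

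Without control replicate 2, the 899 genes became 461 in DESeq2. The 4 members called higher became 2 in DESeq2, 2 with the offset and 2 with scaling to the ribosomal protein sum, and 0 to 15 with a further library left out. Members called lower became 19 with the offset (median -0.05), 1 with scaling to the ribosomal protein sum, and 0 to 1 with a further library left out. The cause of these changes was not tested. Of the FPKM sum, another quantity than the share of counts, the members held 13.9%, 16% and 14.2% in controls 1 to 3. In treated replicates 1 to 3 they held 14.3%, 14.2% and 14.2%, so only control 2 stood apart. Depth limits the members of few counts: Rpl39l, Rpl3l and Rps23rg1, then Rpl32l, Rps27rt and Rpl34, which had at most 683 counts in any library.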
